A study of Rattus norvegicus with 56 samples.

Results

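Bcl6, Klf9, Sgk1, Tsc22d3, Fkbp5, Irs2 and Zbtb16 were followed through a time course of cultured rat hippocampal neurons. These 7 genes, of 16581 genes with a symbol on the array, encode transcription factors, a kinase, an adaptor and a cochaperone that glucocorticoid hormones or FoxO factors are known to induce. They were chosen by name through the RefSeq accession of their probe, and their course over time in these arrays was known when they were chosen, so changes over time of the 7 are described here without a test. Each gene had 1 probe, printed as 1 spot, and all 7 probes passed the filter on dim signal. Bcl6, Klf9, Sgk1, Tsc22d3, Fkbp5 and Irs2 were well above background on 55 of 55 arrays, and Zbtb16 on 54.

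Glucocorticoids enter cells and bind the glucocorticoid receptor Nr3c1, a transcription factor that chaperones hold ready in the cytoplasm and that moves to the nucleus once hormone is bound. FoxO factors are switched off by insulin and growth factor signalling, in which the kinase Akt phosphorylates them and keeps them out of the nucleus, and they return to their target genes when that signal falls. Several genes respond to both inputs, and the serum-free supplement in which such neurons are commonly kept contains both a corticosteroid and insulin.

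Hippocampi of E18 Sprague-Dawley embryos had been dissociated and kept in Neurobasal medium with B27, so these were primary cultures and not a line. The dishes stood on an inverted coil for repetitive transcranial magnetic stimulation, given either as evenly paced pulses at 1 Hz or as intermittent theta burst stimulation (iTBS, short bursts in trains), and in sham dishes the coil was kept at a distance. RNA of sham, 1 Hz and iTBS cultures was taken at 5 times counted from when stimulation ended (0, 2, 8, 24 or 48 h), and untreated controls were taken at 0 h only. One sample was hybridized per 1-colour Agilent array, which gave 56 arrays in 16 groups. Replicate 2 of the 2 h group after 1 Hz carried the scanner's mark for a badly placed grid, and its correlation with the mean of the others was −0.0102. It was left out, so 55 arrays were used, in groups of 2 to 4.

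Sample numbers in the descriptions fell into 4 runs, called culture series A, B, C and D here. The labels do not say what a series is, and they do not state that replicates came from separate cultures, so the p-values measure only the spread between these samples. Series A was thin, with 1 array each at 8 and 24 h, both after 1 Hz. The arms within a mean of series and time also differed, and series B had no sham array at 48 h. Levels are scaled log2 signals, set so that each array's probes average 0, and a difference of 1 between arrays is a doubling before the scaling of spread described under the processing. Folds given here are computed from these scaled levels and are not folds of the raw signal. Levels of different genes come from different probes and are not compared with each other. In RNA from whole cultures, fewer cells of a type and less RNA per cell cannot be told apart.

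Promoter sequence is shown for Bcl6 and Klf9, which were higher late in every series, and for Tsc22d3, which held the other FoxO match. RefSeq windows of the rat assembly GRCr8 were found for 5 of the 7 genes, 9 windows in all, and not for Irs2 or Zbtb16. The 250 bases before each start were searched on both strands for the glucocorticoid receptor half-site AGAACA and the FoxO site GTAAACA. The half-site was in 0 of the 9 windows and in 17.52% of all 33469 windows of that length. The FoxO letters were in 1 window of Klf9 and 1 of the 3 windows of Tsc22d3, against 3.21% of all windows. They began 133 bases before the Klf9 start and 162 bases before the Tsc22d3 start, and stand in capitals below, in Tsc22d3 as the reverse complement. A match, or its absence, is a description of these letters in these 250 bases only, and no other stretch of the genes was searched. The Bcl6 window held neither motif and was 74.0% G and C, against a median of 51.2% over all windows. The windows lie at chr1:230126396-230126645 on the plus strand for Klf9, at chrX:109010035-109010284 on the minus strand for Tsc22d3 and at chr11:90358503-90358752 on the plus strand for Bcl6.
Klf9: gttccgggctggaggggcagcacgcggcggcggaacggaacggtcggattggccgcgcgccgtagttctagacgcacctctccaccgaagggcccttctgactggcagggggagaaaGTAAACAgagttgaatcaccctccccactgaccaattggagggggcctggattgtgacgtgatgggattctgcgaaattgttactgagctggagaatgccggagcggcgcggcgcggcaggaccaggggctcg
Tsc22d3: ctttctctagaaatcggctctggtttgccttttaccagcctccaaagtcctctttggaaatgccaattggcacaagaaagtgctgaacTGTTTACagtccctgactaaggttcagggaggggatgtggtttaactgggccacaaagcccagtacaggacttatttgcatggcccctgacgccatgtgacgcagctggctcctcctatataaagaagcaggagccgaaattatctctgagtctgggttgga
Bcl6: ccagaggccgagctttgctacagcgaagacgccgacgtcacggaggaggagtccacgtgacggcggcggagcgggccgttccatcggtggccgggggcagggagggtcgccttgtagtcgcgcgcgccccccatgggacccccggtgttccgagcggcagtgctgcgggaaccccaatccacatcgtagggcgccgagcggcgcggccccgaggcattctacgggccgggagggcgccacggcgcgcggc

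Bcl6, a zinc finger repressor that FoxO factors induce and that also takes part in neuronal differentiation, was higher late in the course in every culture series. Against 0 h in the same series it was higher by 1.01 ± 0.61 (SD over 4 series; 2.02-fold) at 24 h and by 0.96 ± 0.43 (1.94-fold) at 48 h. At 2 h the difference was +0.32 ± 0.47 and at 8 h +0.29 ± 0.45, each higher in 3 of 4 series. Without series A these early differences were +0.08 and +0.10. Series C was at +0.30 at 8 h, and series B and D had their first large difference at 24 h.

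Single arrays carried the same order. At 0 h the 11 sham, 1 Hz and iTBS arrays had Bcl6 levels from 3.41 to 4.78 (median 4.42). At 24 h the 9 arrays lay between 4.93 and 5.76 (median 5.13), and at 48 h the 11 arrays lay between 4.81 and 5.76 (median 5.19). Both late groups were wholly above the 0 h group, a separation that 0.261% of the 35694 tested probes showed upward at 24 h and 0.230% at 48 h. The 4 untreated control arrays at 0 h reached 4.98 and overlapped the late levels. In linear signal before scaling, the ranges overlapped: 888 to 2864 at 0 h, 1647 to 12444 at 24 h and 1518 to 9910 at 48 h.

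The size of the Bcl6 difference varied between series. In series A the mean levels at the 5 times in order were 3.80, 4.81, 4.67, 5.32 and 5.0, and the first is the mean of a sham array at 3.41 and an iTBS array at 4.19. Series D stayed at 4.17, 4.26 and 4.37 over the first 3 times, then stood at 5.73 and 5.58. On the scaled signal this was 2.94-fold and 2.65-fold the 0 h level. Against its sham and iTBS arrays at 0 h, series A was thus already higher at 2 h, and series D was higher from 24 h. Untreated controls of series A at 0 h, left out of its mean, stood at 4.26 and 4.28.

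Series B and C moved less. Series B was at 4.49, 4.65, 4.28, 4.98 and 5.26 at the 5 times in order, and series C at 4.58, 4.56, 4.88, 5.05 and 5.02. At 48 h this was a 1.71-fold difference from 0 h in series B and a 1.35-fold difference in series C. Untreated controls aside, every array at 24 and 48 h lay above every array at 0 and 2 h in series B, C and D. The untreated controls of series C at 0 h stood at 4.85 and 4.98, and its lowest late array at 4.86. In series A early and late arrays overlapped, since the iTBS array at 2 h (4.96) was above the lowest late array (4.81). The same separation was found for 8.02% of all tested probes in series A, 15.9% in B, 3.96% in C and 9.77% in D, and these shares are given only as background.

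**Figure D1:**
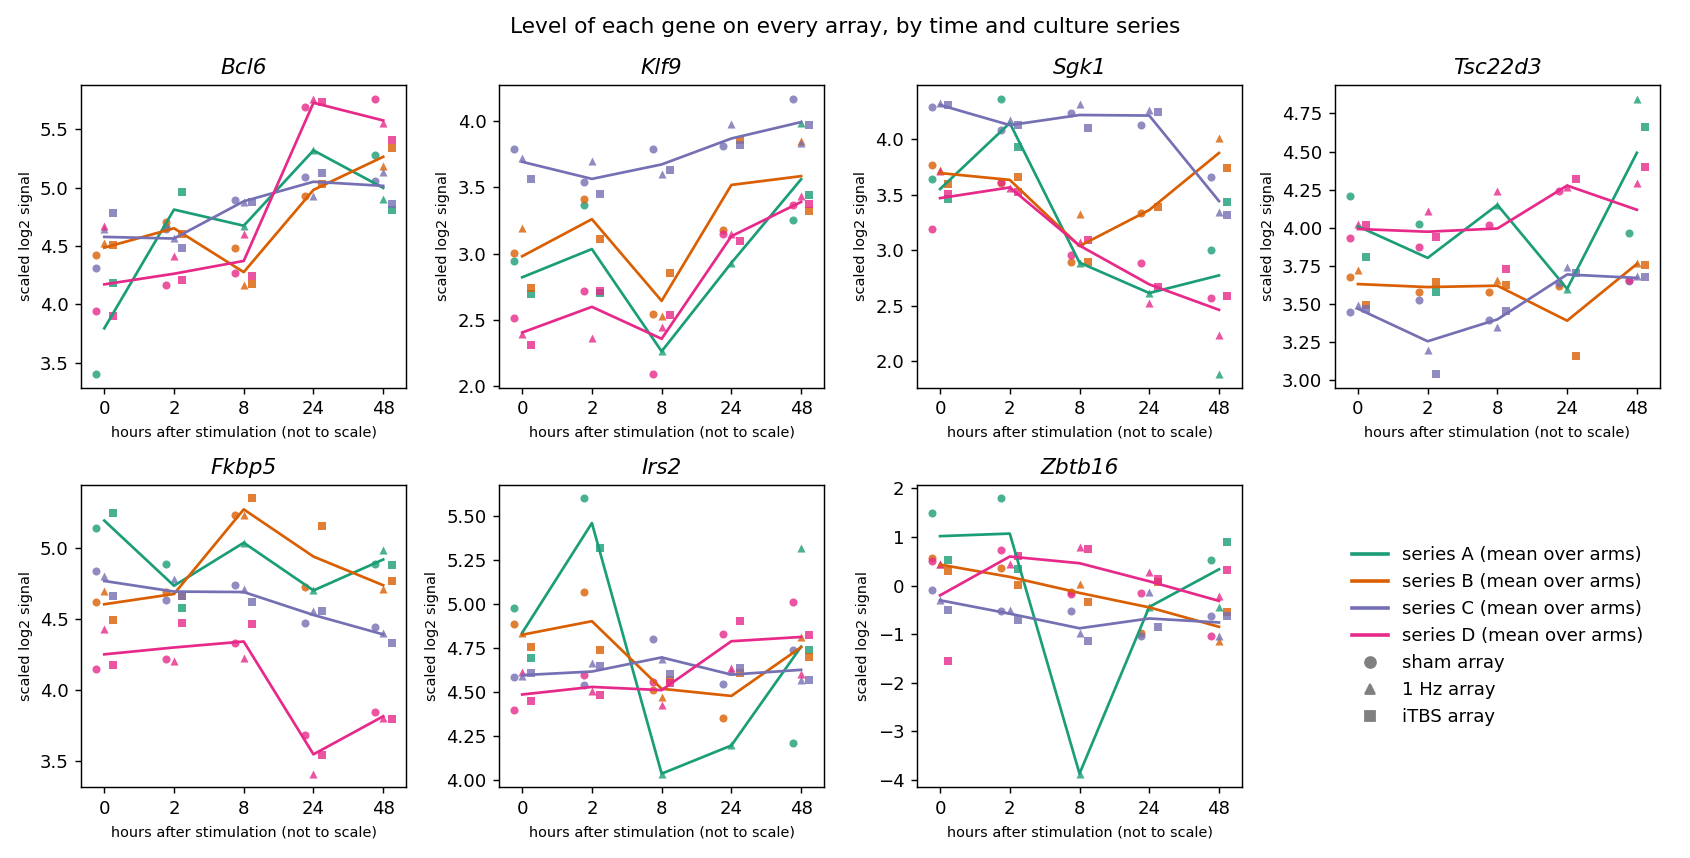
Scaled log2 signal (y axis, one panel per gene with its own range) on every sham, 1 Hz and iTBS array against hours since stimulation (x axis, 5 times, not to scale), coloured by culture series, with a line through the mean over arms of each series. Bcl6 was above its 0 h level at 24 and 48 h in all 4 series, while for Klf9 series C lay above the others at 0 h and series D below them.

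Bcl6 was higher late in each arm. Paired within arm and series, Bcl6 was higher than at 0 h in 8 of 8 pairs at 24 h (median +0.65) and 10 of 10 pairs at 48 h (median +0.79). Among sham cultures alone the mean of the pairs was +1.01 at 24 h (3 of 3) and +1.48 at 48 h (3 of 3). After 1 Hz it was +0.69 (2 of 2) and +0.68 (3 of 3), and after iTBS +0.90 (3 of 3) and +0.76 (4 of 4). Of all tested probes, 4.75% were higher in every pair at 24 h and 4.37% at 48 h.

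Klf9, a Krüppel-like factor that glucocorticoid and thyroid hormones are known to induce in neurons, was higher at 24 and 48 h in every series. At 8 h it was below 0 h in 4 of 4 series (mean −0.24 ± 0.26, SD). Within arm and series the mean of the pairs there was −0.29 in sham (0 of 3 higher), −0.24 after 1 Hz (1 of 3) and +0.13 after iTBS (3 of 3). A course that differed between arms did not pass for Klf9 (limma, adjusted p 1.00). By 24 h it was above 0 h in 4 of 4 (+0.39 ± 0.29, 1.31-fold), and by 48 h again in 4 of 4 (+0.66 ± 0.29, 1.58-fold). Beside these counts, 7.84% of all tested probes were lower in every series at 8 h, and 11.6% and 14% were higher in every series at 24 and 48 h.

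Klf9 had a different base level in each series. At 0 h its mean level was 2.41 in series D, 2.82 in A, 2.98 in B and 3.69 in C, and at 48 h it was 3.39, 3.56, 3.58 and 3.99 in the same order. Series C, highest at the start, differed least at 48 h (1.23-fold), and series D, lowest at the start, differed most (1.98-fold). Over all sham, 1 Hz and iTBS arrays, 2.31 to 3.79 at 0 h and 3.25 to 4.17 at 48 h overlapped. Within arm and series Klf9 was higher in 8 of 8 pairs at 24 h and 10 of 10 at 48 h. Of all tested probes, 4.75% and 4.37% were higher in every pair at these times. Untreated controls aside, all late arrays lay above all arrays of 0 and 2 h in series C and D only. That separation was found for 3.96% of all tested probes in series C and 9.77% in D. The untreated controls of series C at 0 h stood at 3.84 and 3.48, and its lowest late array at 3.81.

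Sgk1, the serum- and glucocorticoid-regulated kinase, went the other way. It was lower than at 0 h in 4 of 4 series at 8 h (−0.46 ± 0.27, SD) and at 24 h (−0.54 ± 0.39, 0.690-fold), and in 3 of 4 at 48 h (−0.62 ± 0.54, 0.652-fold). Within arm and series it was lower in 9 of 9 pairs at 8 h, 8 of 8 at 24 h and 8 of 10 at 48 h. Of all tested probes, 2.19% were lower in every pair at 8 h and 3.07% at 24 h.

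The series did not share a shape for Sgk1. In series D the mean level was lower at each step after 2 h, from 3.57 to 3.04, 2.69 and 2.46. In series B it was 3.69 at 0 h, 3.04 at 8 h and back at 3.88 by 48 h. That last mean held no sham array, only a 1 Hz array at 4.01 and an iTBS array at 3.74. Among sham pairs of the other series, 0 of 3 were higher at 48 h. In series C it stayed between 4.13 and 4.31 up to 24 h and was 3.44 at 48 h. Series A had the widest spread at 48 h, where 3 arrays ran from 1.88 to 3.43.

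Tsc22d3, which encodes the leucine zipper protein GILZ and is induced by glucocorticoids and FoxO3, had small differences. Its differences from 0 h were −0.11 ± 0.11 (SD), +0.02 ± 0.09 and −0.04 ± 0.34 at the first 3 later times. At 48 h it was higher in 4 of 4 series by 0.24 ± 0.17 (1.18-fold). Within arm and series the mean of the pairs was +0.17 after 1 Hz (3 of 3 higher) and +0.42 after iTBS (4 of 4), and −0.10 in sham (1 of 3), and a course that differed between arms did not pass (limma, adjusted p 1.00). Series A and B were below 0 h at 24 h (−0.41 and −0.24) and series C and D above (+0.22 and +0.28).

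Fkbp5, a cochaperone that lowers the hormone affinity of the glucocorticoid receptor and is among its most used response genes, was not higher late. Its mean difference from 0 h was −0.27 ± 0.45 (SD) at 24 h and −0.24 ± 0.26 at 48 h, lower in 3 of 4 series each time. In series D it was 4.25 at 0 h, then 3.55 and 3.81 at the late times, and every late array was below every array of 0 and 2 h. The same held in series C, for which 2.60% of all probes did so. Series B ran opposite, from 4.6 at 0 h to 5.27 at 8 h and 4.74 at 48 h, with every late array above. The separations in series D and B were found for 8.43% of all probes downward in series D and 15.9% upward in series B.

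Irs2, an adaptor of the insulin receptor and a FoxO target, was higher at 2 h in 4 of 4 series, by 0.02 to 0.62, and had no shared direction later. Mean differences from 0 h were +0.19 ± 0.29 (SD), −0.25 ± 0.41, −0.17 ± 0.41 and +0.05 ± 0.19 at 2, 8, 24 and 48 h. Series A varied most, at 4.83 at 0 h, 5.46 at 2 h and 4.03 at 8 h, while series C stayed between 4.59 and 4.69 throughout.

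Zbtb16, the PLZF zinc finger repressor and another strong glucocorticoid response gene, had a weak signal, with a median of 93.9 units before scaling. It was below 0 h in 4 of 4 series at 48 h (−0.63 ± 0.49, SD), against 13.7% of all probes. By arm, the mean of the pairs at 48 h was −1.01 in sham (0 of 3 higher), −0.99 after 1 Hz (0 of 3) and +0.32 after iTBS (2 of 4). The test of a differing course between arms did not pass here either (limma, adjusted p 1.00). The single series A array at 8 h had −3.87, the lowest of all arrays, and is the one on which the probe was not well above background. With that array the mean difference at 8 h was −1.35 ± 2.43, and without series A it was −0.17.

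**Figure D2:**
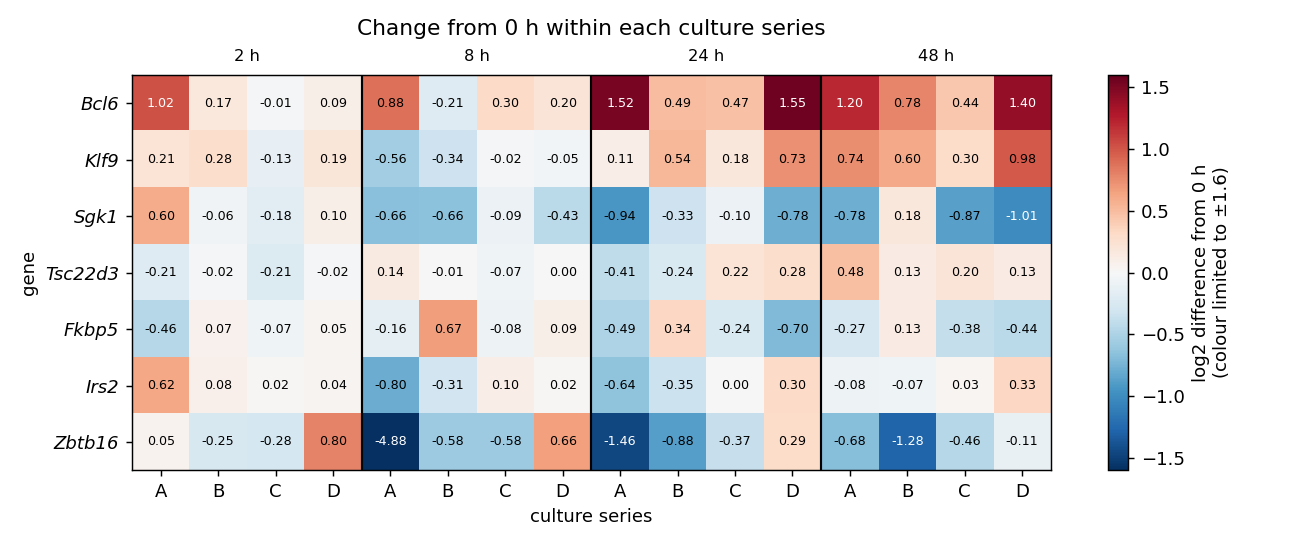
Log2 difference from 0 h in the same culture series (colour, and the number in each cell) for the 7 genes (rows) at 2, 8, 24 and 48 h in series A to D (columns). All 8 cells of Bcl6 and of Klf9 at 24 and 48 h are above 0, and colour is capped, so the series A value of Zbtb16 at 8 h is read from its number.

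The 7 genes thus did not share a direction: at 48 h Bcl6, Klf9 and Tsc22d3 were higher in 4 of 4 series, Zbtb16 was lower in 4 of 4, and Sgk1 and Fkbp5 were lower in 3 of 4. Irs2 was higher in 2 of 4. Such agreement was common at 48 h, where 14% of all tested probes were higher and 13.7% lower in every series. At earlier times, 8.08% were higher and 7.76% lower in every series at 2 h, 9.68% higher at 8 h and 10.4% lower at 24 h. Across the 20 means of series and time, each series centred on its own mean, Bcl6 and Klf9 had a Pearson r of 0.71, and Bcl6 had an r of −0.79 with Fkbp5 and −0.47 with Sgk1. Irs2 and Zbtb16 had an r of 0.69. These means share arrays, slides and scaling, so the correlations are descriptions.

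Time and series split differently between the genes. Of the variance among the 20 means, time held 70.5% for Bcl6 and the series 0.99%. For Fkbp5 the series held 68.8%, for Tsc22d3 62.7%, for Klf9 53.6% and for Sgk1 46.6%. Arms of the same series and time lay close together, with a median SD between arms of 0.14 for Bcl6, 0.18 for Klf9, 0.11 for Sgk1 and 0.37 for Zbtb16.

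Of 10528 genes well above background on every array, those most like Bcl6 over the same 20 means were Cyb5d2 (r 0.93), Lyplal1 (0.92), Scarb2 (0.91), Odad4 (0.91) and Oplah (0.90). Scarb2 is a lysosomal membrane protein and Oplah an enzyme of glutathione turnover. Their log2 differences at 48 h were +0.84, +0.54, +0.74, +0.84 and +1.34.

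The comparison the study was built for was stimulated against sham at the same time, which the choice of the genes did not use. With each protocol at each of 5 times, 70 tests were made on the 7 genes (limma across all 35694 probes, two-sided, Benjamini-Hochberg over all probes of a comparison). At an adjusted p under 0.05, 0 of the 70 passed, and the share of all probes that passed in a comparison ran from 0% to 0.00560%. At an unadjusted p under 0.05 there was 1 of 70, against 1.64% of such tests over all probes. By comparison that share was 0.899%, 1.11%, 1.32%, 2.29% and 1.47% after 1 Hz at the 5 times in order, and 3.94%, 2.12%, 0.883%, 0.552% and 1.78% after iTBS.

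That 1 test was Bcl6 after 1 Hz at 0 h. Sham arrays at 0 h stood at 3.94 in series D, 4.31 in C, 4.42 in B and 3.41 in A, and 1 Hz arrays at 4.67 in D, 4.65 in C and 4.52 in B. The log2 difference was +0.59 ± 0.26 (SE; 95% interval 0.06 to 1.12; limma adjusted p 1.00). No 1 Hz array of series A entered at 0 h, and without the sham array of series A the difference was +0.39. Untreated controls, compared with the same 4 sham arrays, also lay higher (4.59 ± 0.38 against 4.02 ± 0.46, SD, n = 4 each; difference +0.57 ± 0.24, SE; limma adjusted p 1.00), where 2.43% of all probes had an unadjusted p under 0.05 and 0.00280% passed. Both comparisons lean on the same sham arrays.

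Late Bcl6 means differed from sham by less than the spread between arrays. At 24 h they were 5.24 ± 0.40 (SD, n = 3) in sham, 5.34 ± 0.41 (n = 3) after 1 Hz and 5.30 ± 0.38 (n = 3) after iTBS. By 48 h they were 5.37 ± 0.36 (n = 3), 5.20 ± 0.27 (n = 4) and 5.10 ± 0.31 (n = 4). The 95% intervals of the difference at 48 h were −0.70 to 0.36 after 1 Hz and −0.80 to 0.27 after iTBS, so differences of that size in either direction remain possible.

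The other 6 genes differed from sham by at most 0.39 in either direction except Zbtb16, whose differences ran from −0.92 to +0.63. Klf9 lay within −0.26 to +0.21 of sham, Sgk1 within −0.32 to +0.20, Fkbp5 within −0.12 to +0.12 and Irs2 within −0.36 to +0.17. Tsc22d3 reached +0.39 after 1 Hz and +0.36 after iTBS at 48 h. The 95% interval reached at most ± 0.50 around the difference for Irs2, 0.60 for Bcl6, 0.71 for Tsc22d3, 0.80 for Fkbp5, 0.88 for Klf9, 1.04 for Sgk1 and 1.46 for Zbtb16.

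With culture series in the model the intervals of the genes that differed between series narrowed, to at most 0.44 for both Klf9 and Tsc22d3 and 0.41 for Fkbp5. Again 0 of 70 tests passed, and 3 had an unadjusted p under 0.05 against 3.74% of tests over all probes. These were Bcl6 after 1 Hz at 0 h (+0.54 ± 0.26, SE) and Tsc22d3 at 48 h after 1 Hz (+0.46 ± 0.19) and iTBS (+0.44 ± 0.19), with limma adjusted p of 1.00, 0.857 and 0.914. Neither a difference between iTBS and 1 Hz at any time nor a course over time that differed between arms passed for any of the 7 genes (moderated F, adjusted p 1.00 for each of the 14 tests). Of all probes 0.00280% passed each of these F tests, and 0.838% and 0.807% had an unadjusted p under 0.05, against 0 of the 7 genes.

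**Figure D3:**
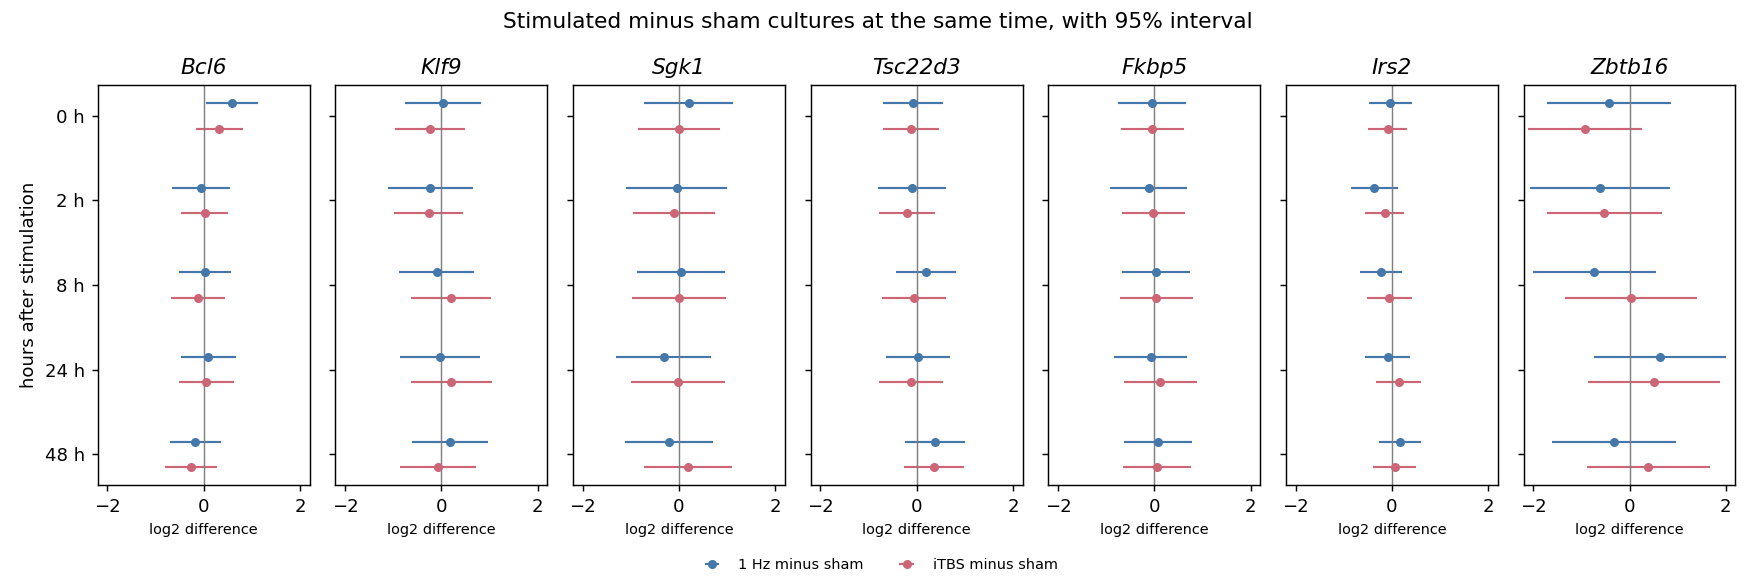
Log2 difference between stimulated and sham arrays at the same time (x axis) with its 95% interval (bars), for 1 Hz and iTBS at each time (y axis), one panel per gene. The interval of 1 of 70 comparisons, Bcl6 after 1 Hz at 0 h, lies clear of 0, and Zbtb16 has the widest intervals.

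Other genes of the same pathways show what moved around the 7. Of 84 listed genes, 74 were on the array and tested for change over time, on the means of series and time with series as a factor. None passed at 2 or 8 h (0% of all probes), 2 were higher at 24 h (2.70% of 74, against 1.13% of all probes), and 7 were higher and 2 lower at 48 h (12.2%, against 6.05% of all probes, 4.08% higher and 1.97% lower). Their median change at 48 h was +0.04, and that of all probes −0.04. The lists were chosen with earlier results of these data known. Their shares and p-values may owe part to that choice, so no result is drawn from the excess over all probes. The same holds for the counts per list below, which are to be read beside those shares of all probes and not against each other.

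On the hormone side an activating enzyme rose, and the receptors did not pass. Hsd11b1, which regenerates active glucocorticoid from its inert form inside the cell, rose by 1.15 ± 0.23 (SE; limma adjusted p 0.0279) at 24 h and 1.10 ± 0.23 (adjusted p 0.0143) at 48 h, in 4 of 4 series each time. At 24 h it was up by 1.63 in series A, 1.74 in B, 0.36 in C and 0.87 in D. The glucocorticoid receptor Nr3c1 was at 3.69 at 0 h and differed by +0.17 ± 0.12 at 48 h (adjusted p 0.438), and the mineralocorticoid receptor Nr3c2 by −0.05 ± 0.22 (adjusted p 0.929). Of 9 tested genes of receptor and hormone handling, 1 was higher at 48 h.

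Among 18 other glucocorticoid-induced genes, 4 rose at 48 h and 0 fell, with a median of +0.36. Of all probes, 4.08% rose and 1.97% fell at 48 h. No result is drawn from this count, as the list was chosen with earlier results of these data known. Angptl4, a secreted inhibitor of lipoprotein lipase that PPAR and hypoxia signals also induce, rose by 3.0 ± 0.42 (SE; limma adjusted p 0.00294), from 1.10 to 5.29 in series A, 1.89 to 6.16 in B, 5.62 to 7.19 in C and 5.71 to 7.69 in D. Lcn2, lipocalin 2, an iron-binding protein that reactive astrocytes release, rose by 1.56 ± 0.38 (adjusted p 0.0285), with a difference of 0.08 in series C. Plin4, a lipid droplet coat protein, rose by 2.47 ± 0.36 (adjusted p 0.00320) and Gjb6, an astrocyte gap junction protein, by 1.15 ± 0.29 (adjusted p 0.0335). Plin4 and Gjb6 were named after their values were seen, and each was well above background on 7 of 11 arrays at 0 h.

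Of 3 tested FoxO factors 1 passed at 48 h, beside 6.05% of all probes. Foxo4 rose by 1.03 ± 0.20 (SE; limma adjusted p 0.0118) at 48 h, by 1.44 in series A, 1.53 in B, 0.20 in C and 0.94 in D. Foxo1 differed by −0.31 ± 0.15 (adjusted p 0.204) and Foxo3 by −0.04 ± 0.28 (adjusted p 0.950), and 0 of 17 other FoxO targets passed at any time, with a median of +0.22 at 48 h. The smallest p among them was that of Klf15, a Krüppel-like factor shared with the glucocorticoid response, at +0.78 ± 0.23 (adjusted p 0.0581). Of 16 insulin and IGF signalling genes 1 passed: Akt1, the kinase that inactivates FoxO factors, fell by 0.75 at 48 h (SE 0.16; adjusted p 0.0178), in 4 of 4 series.

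Of 11 genes listed for Bcl6 (corepressors, known targets and the relative Bcl6b), 1 was higher and 1 lower at 48 h. Bach2, a transcriptional repressor known from B cells, where Bcl6 also acts, fell by 0.83 (SE 0.17; limma adjusted p 0.0126), by 1.48 in series A, 0.93 in B, 0.46 in C and 0.44 in D. Bcl6b, a close relative of Bcl6, rose by 0.97 ± 0.25 (adjusted p 0.0351), in 4 of 4 series, and was named after its values were seen. Against sham, 0 of the 74 genes passed in any comparison.

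**Figure D4:**
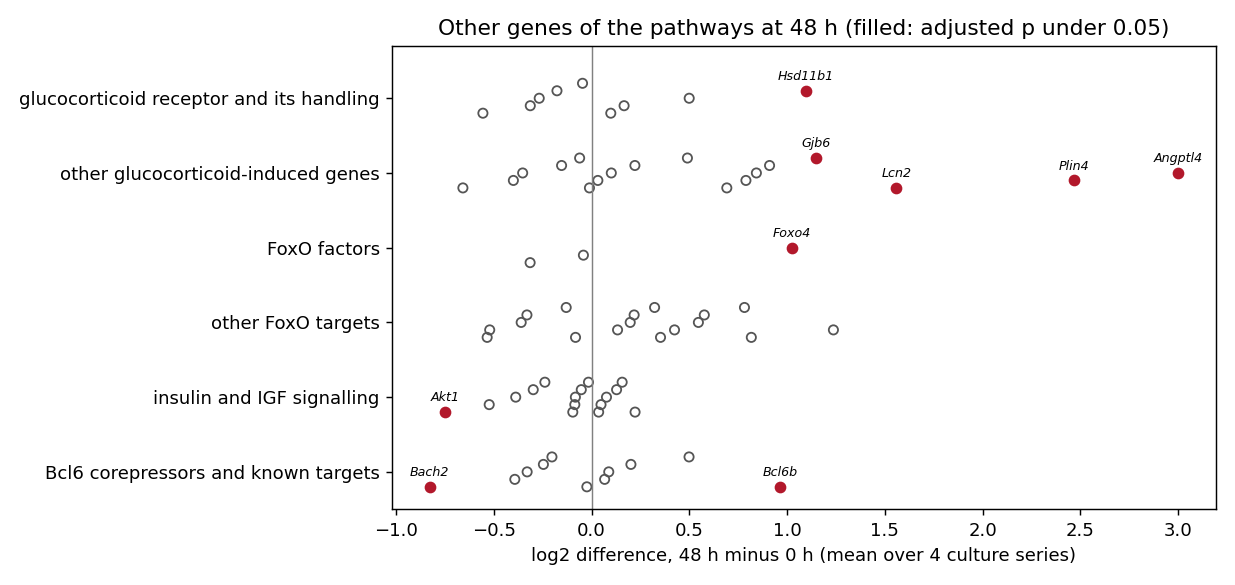
Log2 difference between 48 h and 0 h (x axis, mean over 4 culture series) of each tested pathway gene (point), by list (y axis). Filled points passed at an adjusted p under 0.05; Angptl4 lies farthest right at 3.0 and Bach2 farthest left among the genes that passed.

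The calls depended on which series entered. Without series A, B, C or D, 2, 1, 6 and 1 of the 74 genes passed at 48 h, and without series in the model 0. At 24 h between 0 and 5 passed when 1 series was left out. Angptl4 passed without series A, C or D and had an adjusted p just over the threshold without series B. Bach2, Foxo4, Lcn2 and the 24 h call of Hsd11b1 were lost without series A, B or D, and Akt1 was lost whichever series was left out.

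Markers of other cell types moved over the same hours. The cultures were labelled as brain tissue and described as neurons, and all 5 neuron markers, all 5 astrocyte markers and all 5 oligodendrocyte lineage markers were well above background on every array. The summed astrocyte signal (log2) ran from 9.71 to 10.83 at 0 h and from 9.96 to 11.66 at 48 h, and within series it was higher by 0.61 on average at 48 h, in 4 of 4 series. Of its 5 markers, 3 rose at 48 h: Gfap by 1.61 ± 0.40 (SE; limma adjusted p 0.0290), Aqp4 by 1.07 ± 0.28 (adjusted p 0.0368) and S100b by 1.12 ± 0.19 (adjusted p 0.00615). The summed neuron signal went from 9.06 to 9.89 at 0 h to 8.52 to 9.73 at 48 h, lower in 3 of 4 series by 0.36 on average, with 0 of 5 markers passing. By series, the astrocyte differences at 48 h were +0.46 in A, +1.02 in B, +0.16 in C and +0.79 in D, beside Bcl6 differences of +1.2, +0.78, +0.44 and +1.4. Series C was lowest in both, and the highest was B for astrocyte signal and D for Bcl6. Summed oligodendrocyte lineage signal was higher in 2 of 4 series at 48 h (−0.09 on average). Summed microglia signal was higher in 3 of 4 series at 48 h (+0.41 on average) and endothelial and mural signal in 3 of 4 (+0.59), and their markers were split. Of the microglia markers, Cx3cr1 and Itgam were well above background on 55 of 55 arrays, Aif1 on 32 and Csf1r on 7. Of the endothelial and mural markers, Pdgfrb was well above background on 55, Pecam1 on 53, Rgs5 on 12, Cldn5 on 6 and Flt1 on 4. The part of cell makeup in the levels of Bcl6, Klf9 and the pathway genes was not tested.

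Slides moved with time. The 55 arrays lay on 7 slides, and 0 slides held the same series at both 0 and 24 h or 0 and 48 h. With slide as a further factor, fitted to single arrays, Bcl6 was higher by 0.75 at 24 h and 0.78 at 48 h, Klf9 by 0.40 and 0.73, and Sgk1 was lower, at −0.31 and −0.46. Under the same fit Zbtb16 at 48 h was +0.09 and Fkbp5 −0.01. Within a series, slide and the step from 0 h to the late times cannot be told apart.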

How the data were processed

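Signals were read from the scanner files of 1-colour Agilent arrays (Cy3), made with Agilent Feature Extraction 12.0.3.1 per the file headers. The deposited intensity values are processed signals from which the authors' scanner software had subtracted background. The deposited series table holds a score per spot, the authors' z-score of log10 signal within an array, and was used as an alternative. Spots of a probe were averaged after leaving out control spots, and 420 of 45598 probes were dropped for outlier flags. Log2 signals were centred on each array's mean, divided by the array's SD and multiplied by the median SD of all arrays (4.06). A probe was tested if well above background on 3 or more of the 55 arrays, which left 35694 probes, and 0 spots were saturated. The share of probes well above background was 66.1% to 81.8% per array, and the number of arrays limits the precision.

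Stimulation was compared with sham in limma 3.58.1 (R 4.3.3) over 16 groups, and time with 0 h in limma on means of series and time with series as a factor. P-values were adjusted by Benjamini-Hochberg over all tested probes, at a threshold of 0.05. Deviations of arrays from their group means correlated at 0.398 on average within a series and at −0.134 between series. Named genes were the 7 members, up to 3 passing genes per list with the largest change (each bright enough on all arrays used), the gene with the smallest p of a list without a call, the receptors Nr3c1 and Nr3c2, Foxo1, Foxo3 and the 5 genes most like Bcl6. The members and lists were chosen with earlier results of these data known. Fits were run on simulated data with known changes. For the stimulation comparisons the simulated noise was independent between arrays, without the correlation within a series given above. What those fits recovered can therefore not be carried over to these arrays. Promoters came from RefSeq on GRCr8, while the array headers name rn4, so no array coordinates were used. Alternatives were other scalings and backgrounds, no filter, blocks by series, title number or slide, sham only, all 56 arrays and leaving out each array or series.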

Additional observations from a re-analysis of the deposited data

Results flagged for a closer look

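In 56 checks of groups of 4 arrays over the 7 genes, 2 held an array far from the others (3.57%), and chance flags about 1 group in 20. Bcl6 in sham at 2 h was 4.17 in replicate 4, from series D, with the nearest of the other arrays at 4.65. The 1 Hz and iTBS arrays of series D at 2 h stood at 4.41 and 4.21. Sgk1 after iTBS at 0 h was 4.31 in replicate 2, from series C, with the nearest at 3.59. The sham and 1 Hz arrays of series C at 0 h stood at 4.29 and 4.32.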

How the results depend on the processing

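No member passed against sham, between the protocols or in its course between arms under 75th percentile or quantile scaling, normexp background, no filter, a slide factor, the authors' z-scores or without any 1 array. With the replicate block by culture series, or by the number in the titles, the count was also 0 in all 13 comparisons. With all 56 arrays 4 members passed after 1 Hz at 2 h, the group that the badly gridded array belongs to. Small differences changed sign without 1 array, with adjusted p of 1.00: Sgk1 after 1 Hz at 24 h ran from −0.88 to +0.021, and Fkbp5 after iTBS at 24 h from −0.24 to +0.56, with −0.18 without sham replicate 3. Of the pathway genes, 0 passed at 24 h and 0 at 48 h with no replicate block by series, and 0 and 1 in sham arrays only. Leaving out a series gave 0 to 5 genes at 24 h and 1 to 6 at 48 h. With slide as a factor on single arrays 9 and 28 passed, and with means of 2 or more arrays 1 passed at 24 h. The last 2 settings, the slide factor against sham and the z-scores were chosen after seeing the data. Klf15 passed with slide as a factor (+1.07, adjusted p 0.000444). Over 13 settings Bcl6 was higher by 0.75 to 1.19 at 24 h and 0.78 to 1.37 at 48 h, and Klf9 by 0.27 to 0.50 and 0.50 to 0.78. Averaging all probes of a gene could give nothing else, since each member has 1 probe. The causes were not tested.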
